A study of Aspergillus luchuensis with 6 samples.

Results

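Transcripts that were well expressed in koji of wild-type *Aspergillus luchuensis* and moderately lower in koji of its mutant U1 numbered 50 of the 11488 locus tags counted. A tag is a gene identifier of the annotation used for counting. Levels are CPM, a tag's reads divided by all counted reads of its library in units of 1000000, so they compare a tag between libraries and not tags of different length. The 50 members had a wild-type mean from 200 to under 1000 CPM, a U1 to wild-type ratio of mean CPM above 0.5 and at most 0.72, and a lower level in every U1 library than in every wild-type library. A stretch of 66 consecutive numbers, AKAW_05980 to AKAW_06045, was left out by the same rule. The members were thus chosen on the strain difference itself, which is given here as a description.

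Rice koji of U1 was compared with koji of wild-type RIB2601. The labels call U1 a high starch degrading mutant of the RIB2601 background, and the series title traces it to ion beam mutagenesis. There were 3 libraries per strain, and U1 is 1 mutant strain. Its mutations, and the time and temperature of culture, were not among the information used here. Whether replicates are separate koji cultures is not stated in the labels, so a p-value reflects the variation among these 6 libraries, some or all of which may be technical. The counts summed to 4427719 to 8420828 in the U1 libraries and to 4025119 to 5064126 in the wild-type libraries.

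*Aspergillus luchuensis* is the filamentous fungus of the koji from which Japanese distilled spirits are made. On steamed rice it grows as a mycelium and secretes amylases and other hydrolases that break the grain down, together with citric acid, which keeps the mash sour. Transcripts of the main secreted enzymes are typically abundant in koji moulds. The tags come without gene names: 0 of them occur among the 12941 genes of the reference table, so the role of the members in these processes is not known here. Marker genes of other cell types, such as spore-forming cells, could not be looked up for the same reason.

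Around the members, most tags of the same level differed little between the strains. Of the 892 tags at 200 to under 1000 CPM in wild type outside the left-out stretch, 787 had a ratio above 0.72 and under 1.389, its inverse, and the median ratio was 1.03. A ratio above 0.5 and at most 0.72 was found for 51 tags, of which 50 had separated libraries and are the members, or 5.61% of the 892. In the remaining tag, with 245 CPM in U1 and 377 CPM in wild type on average, the highest U1 library (276 CPM) lay above the lowest wild-type library (271 CPM). There were 22 tags at a ratio of 0.5 or less. On the other side, 27 tags had a ratio from 1.389 to under 2 with every U1 library above every wild-type library, and 5 had a ratio of 2 or more.

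**Figure D1:**
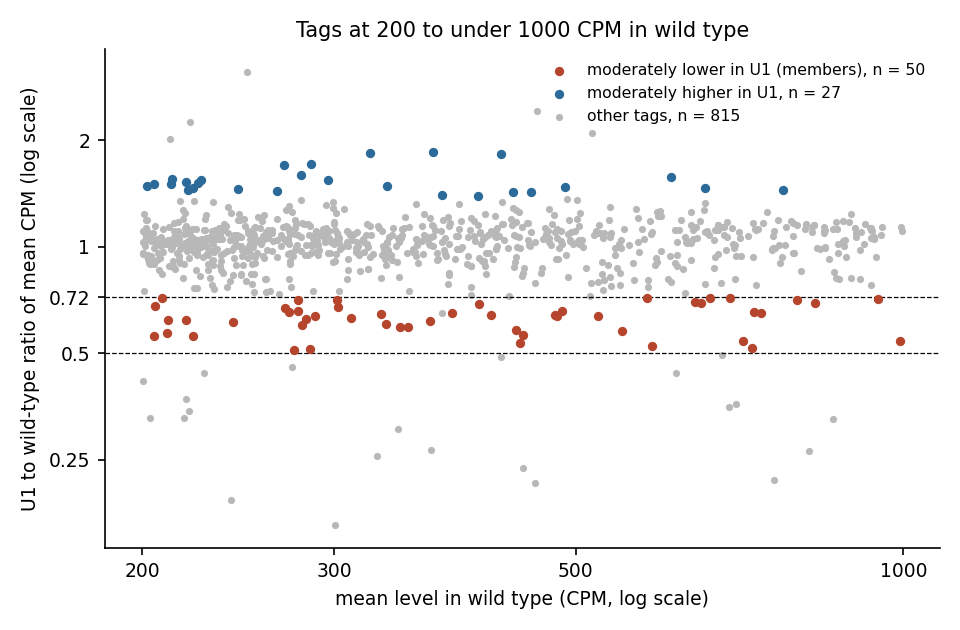
Each point is 1 of the 892 tags at 200 to under 1000 CPM in wild type, with its wild-type mean (horizontal, CPM, log scale) and its U1 to wild-type ratio of mean CPM (vertical, log scale). The 50 members lie between the dashed lines at ratios of 0.5 and 0.72, the 27 moderately higher tags lie above the main band, and the other tags centre near a ratio of 1.

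Ratios of the members did not form a group apart from the tags beyond the thresholds. The members nearest to the upper threshold had ratios of 0.719, 0.718 and 0.717, and the nearest separated tags outside had 0.725, 0.727 and 0.730. At the lower threshold the members had 0.510, 0.513 and 0.516, against 0.496, 0.489 and 0.457 outside. A wider step lay at the edges of level. The lowest wild-type means among members were 205, 206 and 209 CPM, and the tags below 200 CPM that met the other criteria began at 185 CPM and numbered 431. Above 1000 CPM the other criteria were met by 9 tags, the nearest of them at 1466 CPM in wild type.

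As a group the members took 1.41%, 1.38% and 1.44% of all counts in the U1 libraries, against 2.28%, 2.25% and 2.14% in the wild-type libraries. The share averaged 1.41% ± 0.0255 in U1 and 2.22% ± 0.0772 in wild type (SD, n = 3 each), a difference of -0.814 percentage points. Their summed level was 14101 ± 255 CPM in U1 and 22244 ± 772 CPM in wild type (SD, n = 3 each), a ratio of 0.634. By contrast, all 892 tags of that level together held 35.9% to 36.7% of the counts in U1 and 35.8% to 35.9% in wild type. The 27 moderately higher tags held 1.38% to 1.46% in U1 and 0.912% to 0.939% in wild type. Fewer cells of a type and less RNA per cell cannot be told apart in such bulk samples.

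Mean levels of single members ran from 115 to 677 CPM in U1 and from 205 to 992 CPM in wild type, with medians of 232 and 376 CPM in those strains. The median ratio was 0.639. The members split into 15 with a ratio above 0.5 to 0.6, 20 above 0.6 to 0.66 and 15 above 0.66 to 0.72. They were spread over the levels, with 17 at 200 to under 300 CPM in wild type, 17 at 300 to under 500 CPM and 16 at 500 to under 1000 CPM. These made up 4.31% of the 394, 6.27% of the 271 and 7.05% of the 227 tags of each level. The median ratio was 0.622, 0.639 and 0.675 from the lowest to the highest of these levels. By these medians, members at higher CPM were the less reduced. Whether these medians differ was not tested, since the ratio chose the members.

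The lowest ratio belonged to AKAW_10675, a tag with no gene name. Its level was 159, 121 and 141 CPM in the U1 libraries, against 290.3, 287 and 251 CPM in the wild-type libraries. All U1 libraries were low and the strains did not overlap, as the choice of members requires. It averaged 141 ± 18.8 CPM in U1 and 276 ± 21.9 CPM in wild type (SD, n = 3 each). On the log2 scale the fitted difference was -1.04 ± 0.101 (SE, edgeR's adjusted p = 1.57e-06). This tag stood in a stretch of 4 consecutive numbers that were all called lower in U1, with log2 fold changes from -0.54 to -2.16. The summed level of these 4 tags was 217 ± 17.3 CPM in U1 and 411 ± 28.1 CPM in wild type (SD, n = 3 each).

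The member with the highest mean CPM in wild type was AKAW_03048, also without a name. It had 546, 528 and 540.0 CPM in U1, against 998, 1051 and 928 CPM in wild type. The U1 libraries lay closer together than those of any other member in U1, with a coefficient of variation (CV, the SD over the mean) of 1.78%, and the wild-type libraries spread by 6.20%. It averaged 538 ± 9.6 CPM in U1 and 992 ± 61.5 CPM in wild type (SD, n = 3 each), and the fitted log2 difference was -0.96 ± 0.0794 (SE, edgeR's adjusted p = 8.56e-08). No tag next to it in number was called lower.

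The widest separation was in the member with the third lowest ratio, at 396, 342 and 388 CPM in U1 and 714, 737 and 729 CPM in wild type. Its lowest wild-type library was 1.80 times its highest U1 library. The member with the second highest wild-type mean had 639, 698 and 693 CPM in U1 and 966, 919 and 959 CPM in wild type. Here too the lowest wild-type value was clear of the highest U1 value, as the rule requires. Over all members that quotient ran from 1.16 to 1.80, with a median of 1.39. In 48 of the 50 members the gap between the strains was larger than the range within either strain. The rule itself requires a gap, and the same count was not made for other tags, so this only describes the members.

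In the other two members the gap was smaller than a range within a strain. The first had 123, 109 and 141 CPM in U1, against 267, 202 and 199 CPM in wild type, where replicate 1 stood high. Its fitted log2 difference was -0.92 ± 0.123 (SE, edgeR's adjusted p = 0.000122). The second had 426, 538 and 465 CPM in U1, against 676, 626 and 688 CPM in wild type, and U1 replicate 2 stood nearest to wild type. For this one it was -0.55 ± 0.0837 (SE, edgeR's adjusted p = 7.75e-05).

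**Figure D2:**
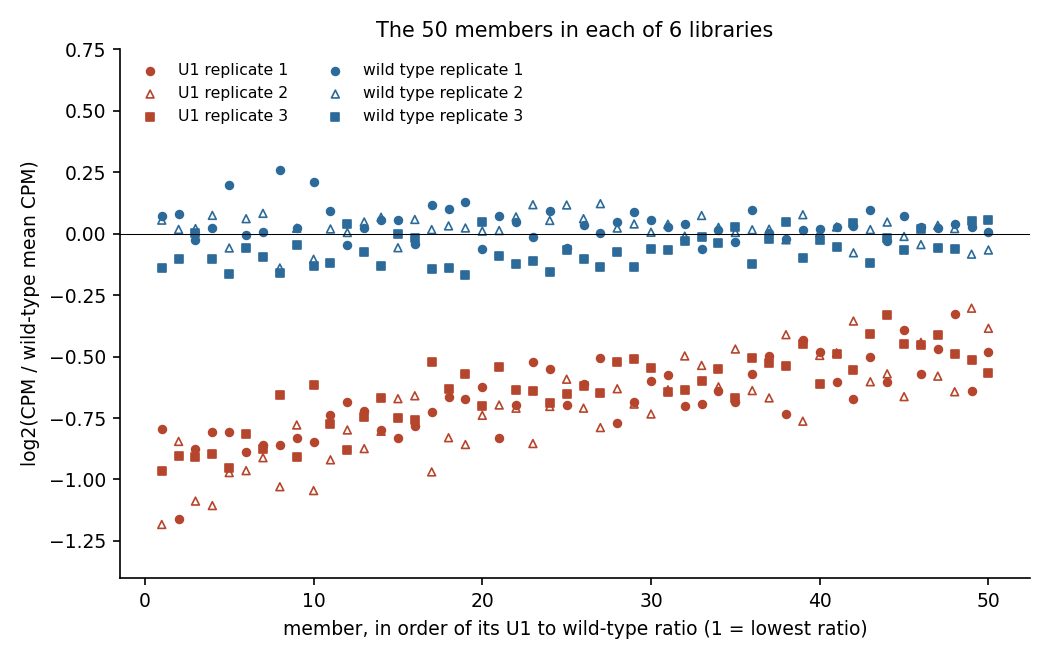
The level of each of the 50 members in each library is drawn as log2 of CPM over the member's wild-type mean CPM (vertical), with members in order of their ratio (horizontal, 1 being the lowest ratio). Points of U1 (red) and wild type (blue) do not overlap within any member, as the rule requires, and the U1 points climb from left to right with the ratio that orders them.

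Read depth was ample for these transcripts. A member received 484 to 5383 reads in a library, at which counting alone gives a CV of 4.55% to 1.36%, taking reads as independent molecules. The measured CV between libraries had a median of 6.65% in U1, from 1.78% to 15.4%, and of 4.83% in wild type, from 1.43% to 17.1%. Counting alone would give medians of 2.76% in U1 and 2.46% in wild type, so the libraries differed by more than counting error. The other 842 tags of that level had median CVs of 6.51% in U1 and 4.23% in wild type. The widest U1 spread was in a member at 203, 171 and 234 CPM in U1 and 363, 339 and 303 CPM in wild type.

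The fit across all tags scaled the libraries by trimmed-mean (TMM) factors, which moves every ratio slightly from that of plain CPM. All 50 members were among the 8790 tags tested, and 50 were called lower in U1 at an adjusted p under 0.05. Of all tested tags, 13.1% were called lower and 24.5% were called in either direction. At an adjusted p under 0.01 the share called lower was 8.9%, and with DESeq2's Wald test at 0.05 it was 10.5%; the 50 members passed both. Every U1 library lay below every wild-type library in 14.3% of the tested tags. Since the rule used the same libraries, nothing is read from the members' count. The members' log2 fold changes lay between -1.05 and -0.55, and their median was -0.72, against medians of -0.03 over the 892 tags of that level and 0.01 over all tested tags. Standard errors lay between 0.0672 and 0.123 (median 0.0777), and adjusted p-values reached from 4.04e-08 to 0.000188 (edgeR quasi-likelihood test).

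Calls among the tags of that level depended on that scaling, and so did the members' median log2 fold change. With TMM factors, 192 (21.5%) of the 892 tags of that level were called lower and 71 (7.96%) higher. With library totals alone 147 (16.5%) were called lower and 120 (13.5%) higher, and the 50 members were called in either case. In plain CPM, 181 of the 892 tags had every U1 library below every wild-type library, and 225 had every U1 library above. The members' median log2 fold change was -0.65 with library totals alone. Taken relative to the median of all tested tags it was -0.72 under either scaling.

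Within each strain the libraries of the members were not evenly ordered. In wild type, replicate 3 was the lowest library in 37 of the 50 members (74.0%), while replicate 1 was lowest in 7 and replicate 2 in 6. Among the other 842 tags of that level, replicate 3 was lowest in 284 (33.7%). The level in wild-type replicate 3 was 0.934 times the mean of the other two wild-type libraries in the median member, from 0.844 to 1.06 times, and below that mean in 41 of 50. In the other 842 tags the median was 1.01 times, and 391 were below. With TMM scaling replicate 3 was lowest in 38 members and in 343 of the others (40.7%).

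In U1, replicate 2 was the lowest library in 29 members (58.0%), replicate 1 in 16 and replicate 3 in 5. Among the other 842 tags, replicate 2 was lowest in 286 (34.0%), and replicates 1 and 3 in 344 and 212. With TMM scaling replicate 2 was lowest in 32 members (64.0%) and in 352 of the others (41.8%). By these counts wild-type replicate 3 and U1 replicate 2 were the lowest libraries of their strains more often in members than in their peers. This difference was not tested. Leaving out U1 replicate 2 gave a median log2 fold change of -0.69, and leaving out wild-type replicate 3 gave -0.77, against -0.72 with all libraries. Leaving out any other single library gave -0.73 to -0.69.

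These low libraries went together. Of the 29 members with U1 replicate 2 lowest, 27 also had wild-type replicate 3 lowest, and of the 14 members with U1 replicate 2 highest, 5 did. Across the 50 members, the log2 deviation of U1 replicate 2 from the other U1 libraries correlated with that of wild-type replicate 3 from the other wild-type libraries at r = 0.663 (Spearman's rho = 0.631). Across the other 842 tags of that level the correlation was 0.655 (rho = 0.643), so the link between these libraries of different strains was about as strong outside the members. Deviations of libraries with the same number correlated at 0.0558 for replicate 1, -0.237 for replicate 2 and -0.51 for replicate 3 across the members. All these correlations are descriptions across tags that share 6 libraries and their depths. The other libraries were linked across the strains too. U1 replicate 3 went with wild-type replicate 1 at r = 0.51 across the members and 0.509 across the other 842 tags. U1 replicate 1 went with wild-type replicate 2 at 0.348 across the members and 0.485 across the others. By their highest correlations the 6 libraries could thus be set in 3 pairs with unlike replicate numbers. Each deviation is taken against the other libraries of its strain, so the 3 links are not independent of each other. What the libraries of a pair have in common is not given in the labels, and its part in the members' levels was not tested.

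**Figure D3:**
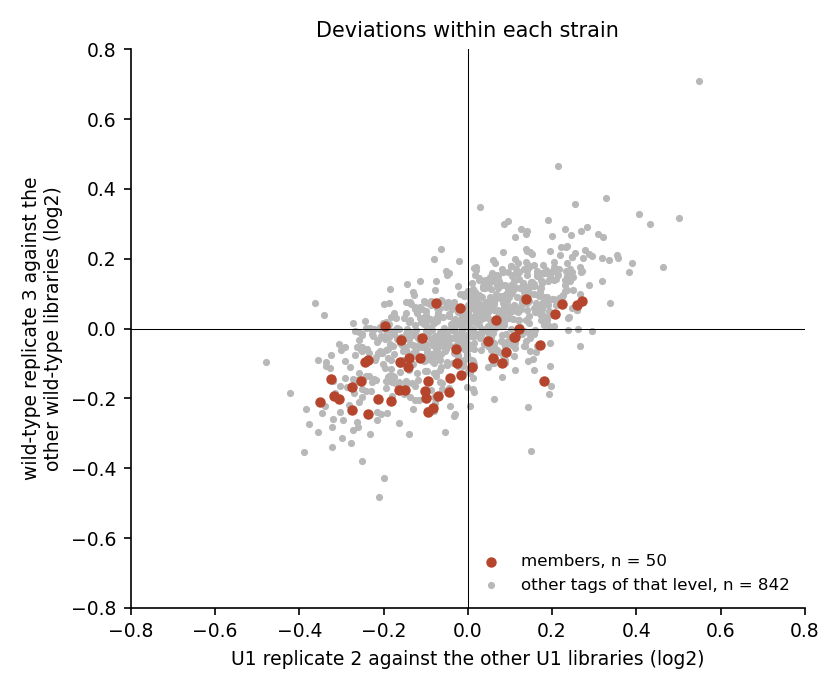
Each point is a tag at 200 to under 1000 CPM in wild type, with the log2 deviation of U1 replicate 2 from the mean of the other U1 libraries (horizontal) and of wild-type replicate 3 from the mean of the other wild-type libraries (vertical). The cloud of 842 other tags (grey) and the 50 members (red) both slope upward. A larger share of the members lies at the lower left. There 31 of the 50 members and 290 of the 842 other tags are below 0 on both axes.

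Members resembled each other in their profile over the libraries once the strain means were removed, which in part restates their shared low libraries. The correlation of such profiles over 6 libraries had a median of 0.341 over the 1225 pairs of members, against 0.0337 over the 354061 pairs of the other 842 tags. The profiles have few free values and share the same libraries, so these are descriptions only.

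Members were scattered along the tag numbers, with some close together. Numbers stand in for place here, since no positions come with the tags. The median gap between successive members was 121 numbers and the largest 1224. Of the 155 tags of that level numbered 4001 to 6000, 17 were members (11.0%), and of the 55 numbered 10001 to 12000, 7 were (12.7%). The share was 3.24%, 2.33%, 4.29% and 5.56% in the other blocks of 2000 numbers, in their order.

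Some stretches held 5 members. One of 41 numbers, within the block from 10001, held 5 members among 10 tags of that level. Both tags of pair D, described below, are among these 5 members, and so among the members of that block. Whether they share reads was not tested. Of the 33 other tested tags in this stretch, 8 were called lower and 0 higher by edgeR, with a median log2 fold change of -0.10. Another, of 87 numbers within the block from 4001, held 5 members among 9 tags of that level. There 10 of the 63 other tested tags were called lower and 13 higher, with a median of -0.03. Among all tested tags, 13.1% were called lower and 11.4% higher. Both stretches were picked out after their values had been seen.

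The tags next to the members were not used in choosing them. Of the 75 tested tags that are no members and stand 1 number before or after a member, 20 (26.7%) were called lower and 6 (8%) higher in U1. Of all 8790 tested tags, 13.1% were called lower and 11.4% higher. Next to the other 842 tags of that level, 159 of 1465 tested tags (10.9%) were called lower and 154 (10.5%) higher. Members were left out of these 1465 as well. Of those 842 tags themselves, 142 were called lower and 71 higher, whereas all members were called lower. Next to the 27 moderately higher tags, 5 of 47 tested tags (10.6%) were called lower and 10 (21.3%) higher. Members and the 27 themselves were left out of these 47. The neighbours of members were mostly at lower CPM than the members, with a median wild-type mean of 52.2 CPM, against 59.9 CPM next to the other tags. Their median log2 fold change was -0.08, against 0.02 next to the other tags, and 3 of the 20 called lower fell by at least 2-fold. This median was -0.0039 with library totals alone, where the median of all tested tags was 0.08, and -0.12 without U1 replicate 3 or without wild-type replicate 3. Under the other scalings, filters and tests, and without single libraries, 16 to 24 neighbours were called lower. That was 21.6% to 32% of the 64 to 75 neighbours tested, where 9.84% to 14.1% of all tested tags were called lower. Neighbouring tags may overlap and share reads, which was not tested because no positions are given.

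At greater distance the share called lower varied. It was 30.6% and 32.4% at 2 and 3 numbers before a member, and 19.0% and 12.5% at 2 and 3 numbers after. At 4 numbers it was 13.9% before and 10.3% after, and at 5 numbers 17.6% before and 19.0% after. Each of these shares rests on 34 to 42 tested tags, so 1 tag moves it by several percentage points. Around the other 842 tags it stayed between 8.51% and 12.6% at every distance up to 5 numbers. Members were left out of the tested tags in all these shares.

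**Figure D4:**
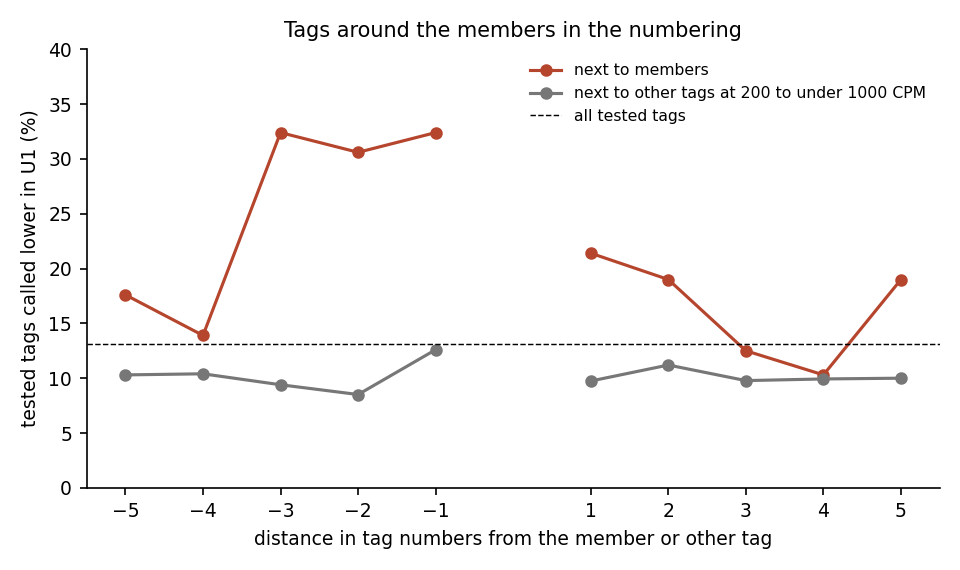
The share of tested tags called lower in U1 (vertical, percent) is drawn by distance in tag numbers (horizontal), for tags around members (red, 34 to 42 tags a point) and around the other tags at 200 to under 1000 CPM (grey). Members are left out of the red and the grey points. The dashed line is the 13.1% of all tested tags, members included. The red points reach 32.4% before the members and the grey points stay between 8.51% and 12.6%.

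With members counted too, 22 of the 50 (44.0%) had a tag called lower directly beside them in number, and 6 had one on either side. Of the other 842 tags of that level, 164 (19.5%) had such a neighbour. Counting stretches in which every number was called lower, the members lay in 45 stretches, of which 28 held the member alone, 9 held 2 tags and 8 held 3 to 8 tags. The longest, of 8 tags, contained 2 members. Its summed level was 779.5 ± 53.5 CPM in U1 and 1158 ± 73.1 CPM in wild type (SD, n = 3 each). A stretch of 5 tags contained 2 members and summed to 1836 ± 28.9 CPM in U1 and 2467 ± 49.7 CPM in wild type (SD, n = 3 each).

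There were 4 pairs of members with consecutive numbers, called A to D here in the order of their numbers. The first tag of pair A had 497, 476 and 473 CPM in U1, against 754, 759.9 and 707 CPM in wild type. The second had 169, 188 and 179.8 CPM in U1, against 261, 287 and 269.8 CPM in wild type. Their ratios were close, at 0.651 and 0.656, while their order of libraries differed, with a profile correlation over the 6 libraries of -0.109.

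Pair B was alike in this. Its tags had ratios of 0.656 and 0.647, at 448, 516 and 469 CPM and at 206, 205 and 233 CPM in U1. In wild type they had 749.8, 724 and 714 CPM and 352, 340.4 and 302 CPM. U1 replicate 2 was the highest U1 library in the first tag and the lowest in the second. In pair C the ratios were 0.715 and 0.640, and the profiles correlated at 0.838. These tags had 151, 139.5 and 157 CPM and 337, 277 and 306 CPM in U1, against 212, 213 and 200.5 CPM and 480.2, 521 and 436 CPM in wild type.

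Pair D was different. Its tags had nearly the same level in every library, at 426, 538 and 465 CPM and at 403, 503 and 438 CPM in U1. In wild type they had 676, 626 and 688 CPM and 658, 610.0 and 664 CPM. The quotient of their reads was 1.06, 1.07 and 1.06 in the U1 libraries, against 1.03, 1.03 and 1.04 in the wild-type libraries, and their profiles correlated at 0.999. Its first tag is the member described above in which U1 replicate 2 stood nearest to wild type. Whether these tags share reads or are near-identical copies was not tested, so their fold changes are reported as uncertain.

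**Figure D5:**
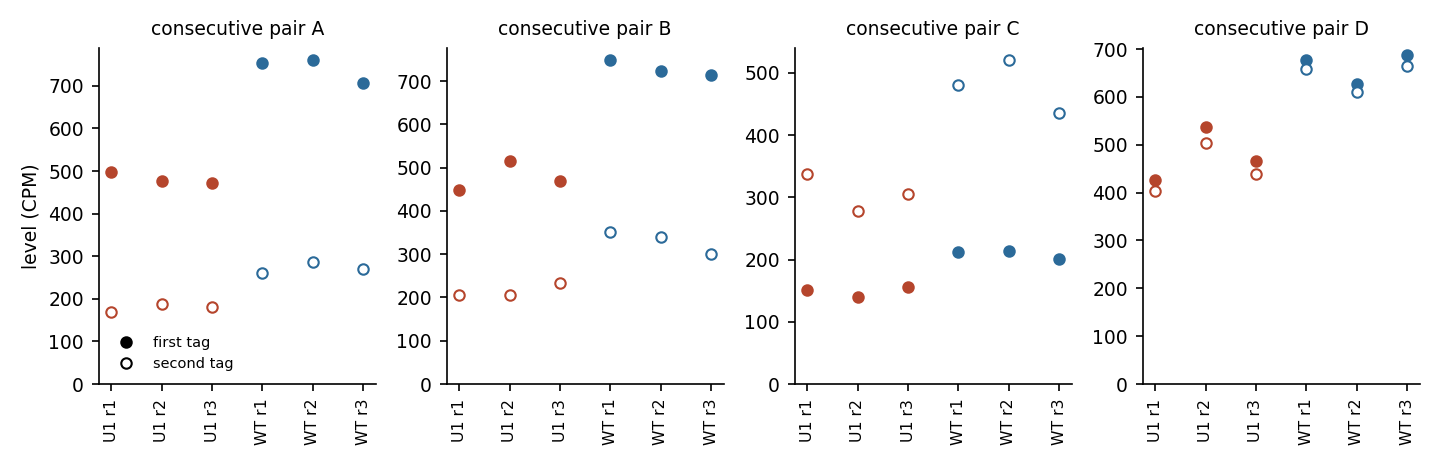
The level (vertical, CPM, from 0) of the first (filled) and second (open) tag of each of the 4 consecutive pairs is drawn for each U1 library (red) and wild-type library (blue). All 8 tags were lower in U1, and the tags of pair D had nearly equal levels in every library.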

How the data were processed

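RNA of rice koji was sequenced in 3 U1 and 3 wild-type libraries. The authors deposited 1 table of raw counts per library, without normalization. The submitters' processing notes name Trimmomatic 0.32 and BWA 0.7.12. The counting program, genome build and strand setting, and how reads matching several places were handled, are not given in the sources.

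The counts were fitted with edgeR 4.0.16 and limma 3.58.1 in R 4.3.3. The steps were filterByExpr by strain (8790 tags, 99.9% of the counts), TMM factors, robust quasi-likelihood fitting with strain as the only term, and two-sided tests adjusted by Benjamini-Hochberg over all tested tags. DESeq2 1.42.0 was an alternative. The code was tested on simulated counts. Standard errors are the log2 fold change over the square root of F. CPM uses library totals. Libraries of a strain differed by more than sampling noise (chi-square over degrees of freedom of 2.15 or more), so all were counted. Counting errors given cover counting only.

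The members and comparisons were chosen with earlier results of these data known. The 2 tags given by number are the member with the lowest ratio and the one with the highest wild-type mean CPM. With no gene names, gene lists had no members.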

Additional observations from a re-analysis of the deposited data

How the results depend on the processing

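All 50 members were called lower in U1 under each alternative run, against 8.9% to 14.1% of all tested tags. The rule used the same libraries, so nothing is read from the members' count. The alternatives were scaling by DESeq2, by upper quartiles or by library totals alone, or on sizes that leave out the 10 most abundant tags. Others were DESeq2's Wald test, an adjusted p under 0.01, a block on replicate number, and omission of any 1 library. Finally, low counts were either not filtered or filtered at 10 CPM in at least 3 libraries. Tags called in all numbered 1416 at an adjusted p under 0.01, a stricter threshold, against 2153, and 1625 to 2069 without 1 library. With the replicate block 2091 tags were called and the members' median log2 fold change stayed at -0.72. Same-numbered libraries did not deviate together across the 8790 tested tags (correlations of -0.04, -0.00049 and -0.07), and the numbers were not taken as pairs. Over the same tags, U1 replicates 1, 2 and 3 each correlated best with a wild-type library of another number, replicates 2, 3 and 1 in that order, at 0.111, 0.145 and 0.173. This is a hint from the data and not from the design, and no block of that kind was fitted.

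The members' median was -0.65 with library totals alone, whose scaling shifts all tags, and -0.77 to -0.69 without 1 library. Their summed U1 to wild-type ratio was 0.603 on TMM-scaled library sizes, against 0.634, and 0.622 to 0.642 without 1 library. The rule itself found 59 tags with TMM scaling, 45 of them among the 50, and 46 to 53 without 1 library. The median of the neighbouring tags was near 0 and moved most: it was -0.0039 with library totals alone, -0.0185 without the 10 most abundant tags in the library sizes, -0.15 with no filter (90 tags), -0.15 with the filter of 10 CPM (64 tags) and -0.15 for neighbours at a mean of 10 CPM or more, against -0.08. Without 1 library it was -0.124 to -0.0813. Over neighbours up to 2 numbers away it was -0.06 (144 tags). Taken less the median of all tested tags it was -0.08 under TMM factors and under library totals alone. In the fit with no filter it was also -0.08 in this way, over the 75 neighbours of the main fit. The cause of these shifts was not tested beyond these comparisons. The recount of neighbours called lower was added after the data had been seen.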
